A study of Vitis vinifera with 9 samples.

Results

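The early transcriptional response of grapevine leaves to ultraviolet C (UV-C) irradiation was followed by comparing leaves taken 6 h after exposure with control leaves taken at 0 h. Members were chosen by time label alone, which gave 6 of the 9 arrays of the series, 3 for the control and 3 for 6 h, and 16436 probe sets measured on each. Mature leaves of Vitis vinifera 'Hongbaladuo', 30 days old, were detached, stood with their petioles in water and incubated briefly in the dark at 25 °C. They then received UV-C on the lower surface for 10 min at 6 W per square metre, and stayed in the flasks until sampling. Each replicate pooled 6 leaves of the same genotype, and the 3 arrays taken 12 h after the exposure are used here only where the 6 h values are set beside a later time. No detached but unexposed leaves were kept for 6 h in these arrays, and the light around the flasks after the exposure is not stated. UV-C, time since detachment, light or darkness in the flasks and time of day therefore cannot be told apart in any difference described below. RNA came from whole leaves, in which fewer cells of a type and less RNA per cell cannot be told apart either.

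UV-C photons are absorbed by DNA, proteins and membranes, and plant cells answer such damage with calcium, oxidant and MAP kinase signals, with jasmonate and ethylene synthesis, and with new transcription. Grapevine leaves are known for one branch of that answer above others, the phenylpropanoid route from shikimate to phenylalanine to the stilbenes, of which resveratrol is the best known. Stilbene synthase and chalcone synthase compete for the same substrates, and the first leads to stilbenes while the second leads to flavonols, anthocyanins and tannins.

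Several regulators described below were also targets of the study's quantitative RT-PCR, and the primer pairs, each written 5′ to 3′, are shown because they identify the transcripts behind these probe sets. They are in lower case throughout, as no stretch of them was singled out. Apart from MPK3 and MYB14, these targets were chosen after their values were seen, and they carry names from the study's lists, so they are not counted in the gene lists below.
MYB14 forward: caagccccttccctcatatttc
MYB14 reverse: gtgctgtcattggcagtag
WRKY57-like (WRKY75 in the study's gene lists) forward: cgtggtcacaacttatgaaggc
WRKY57-like reverse: catctggctcaagatatgctc
WRKY33-like forward: ggggagttttggattctcag
WRKY33-like reverse: ccttaggctcttccttggttc
NAC42 forward: cttgtagggttttatctgcggc
NAC42 reverse: atctcccatgttagtgctgactct
MPK3 forward: gtcacaagacgcacaataggc
MPK3 reverse: gaaggtttcacccagtagagg
Calmodulin-like 11 forward: gtaaaggaaacagacgcagaag
Calmodulin-like 11 reverse: tcatcacatgcctcaactcag

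At 6 h, stilbene synthases, the MYB14 and WRKY regulators, a class IV chitinase and dirigent-like proteins were among the highest rises, while small auxin-responsive proteins, a polygalacturonase, expansins and an aquaporin were among the deepest falls. A probe set was called when its adjusted p was under 0.05 (limma, Benjamini-Hochberg over all probe sets) and its mean signal differed by at least 2-fold. Of 16436 probe sets, 1956 rose (11.9%) and 2411 fell (14.7%), which together is 26.6% of those tested. Rises went further than falls. Among the called probe sets, 214 rose and 63 fell at least 16-fold, and 54 rose but 2 fell at least 64-fold. The median rise was 3.55-fold and the median fall 3.14-fold. The signed median log2 change over all probe sets was −0.03, while 8686 of them had an adjusted p under 0.05 at any fold (limma). Of the rises, 1934 had all 3 arrays of 6 h above all 3 control arrays, and of the falls 2405 had all 3 below. Over all probe sets tested, 26.9% had such a separation upwards and 33.3% downwards.

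The called probe sets started from different levels. The signals are RMA values on a linear scale, with control means of 16.9 at the lower quartile, 116 at the median and 521 at the upper quartile. Of the falls, 48.7% had a control mean above the upper quartile and 0.0830% one below the lower quartile. The lowest signals of the 6 arrays were 3.80 to 4.22, so probe sets near that floor had little room to fall 2-fold. How far this floor shaped these shares, and the greater reach of rises, was not tested. Of the rises, 17.9% started above the upper quartile and 8.74% below the lower, and 37 of the 214 rises of at least 16-fold began below the lower quartile. In contrast, 9 of the 63 falls of at least 16-fold ended below the lower quartile of the 6 h means. Of 1162 gene symbols with several probe sets, 406 had at least 2 of them called, and in 405 of these the calls were in the same direction. The exception was glutamate dehydrogenase (GDH), with 1 probe set at a log2 change of 1.29 and another at −1.21.

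**Figure D1:**
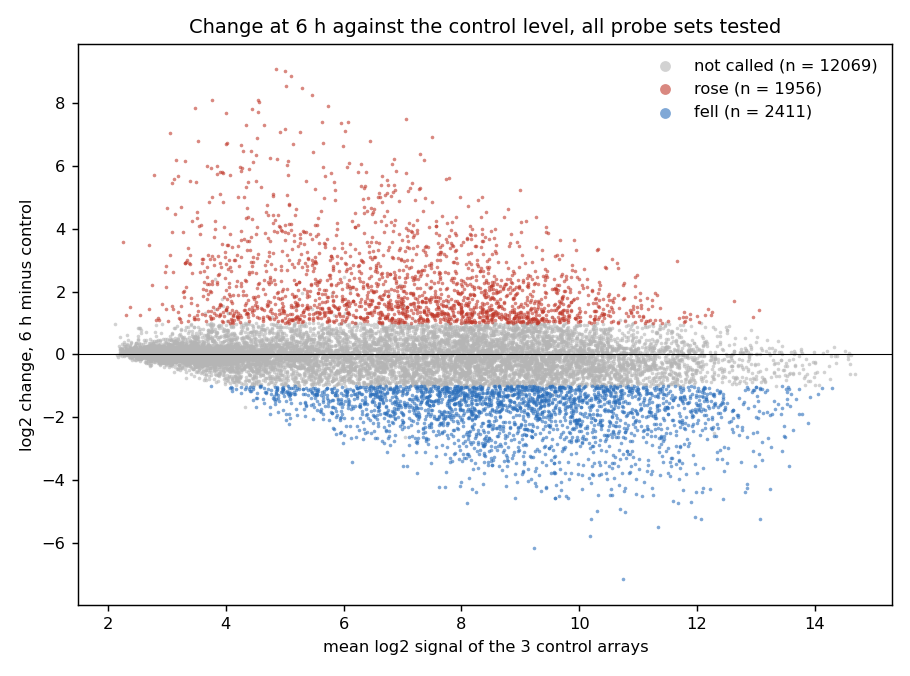
Log2 change at 6 h (vertical axis) against the mean log2 signal of the 3 control arrays (horizontal axis), 1 point per probe set, red where it rose, blue where it fell and grey where it was not called. Rises reach 9.07 and start mostly at low and middle control levels, and falls reach −7.16 and start mostly at middle and high levels.

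The control and the 6 h arrays were well separated. Across all probe sets, the arrays correlated at 0.988 to 0.992 within the control, at 0.992 to 0.995 within 6 h, and at 0.883 to 0.908 between the groups. The median standard error of a log2 change was 0.133. Control replicates 1 and 3 stood apart more often than control replicate 2. Control replicate 1 lay at least 2-fold above both other control arrays for 199 probe sets and at least 2-fold below both for 25, control replicate 3 for 131 and 83, and control replicate 2 for 12 and 32. Of the 199, 133 were among the rises at 6 h. The counts were 1993 rises and 2456 falls without control replicate 1, and 1919 and 2429 without control replicate 3.

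Names were available for 4210 of the probe sets, of which 17.5% rose and 22.3% fell, with a median log2 change of −0.12. These shares are the background for the gene lists that follow, which were drawn from the names.

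**Figure D2:**
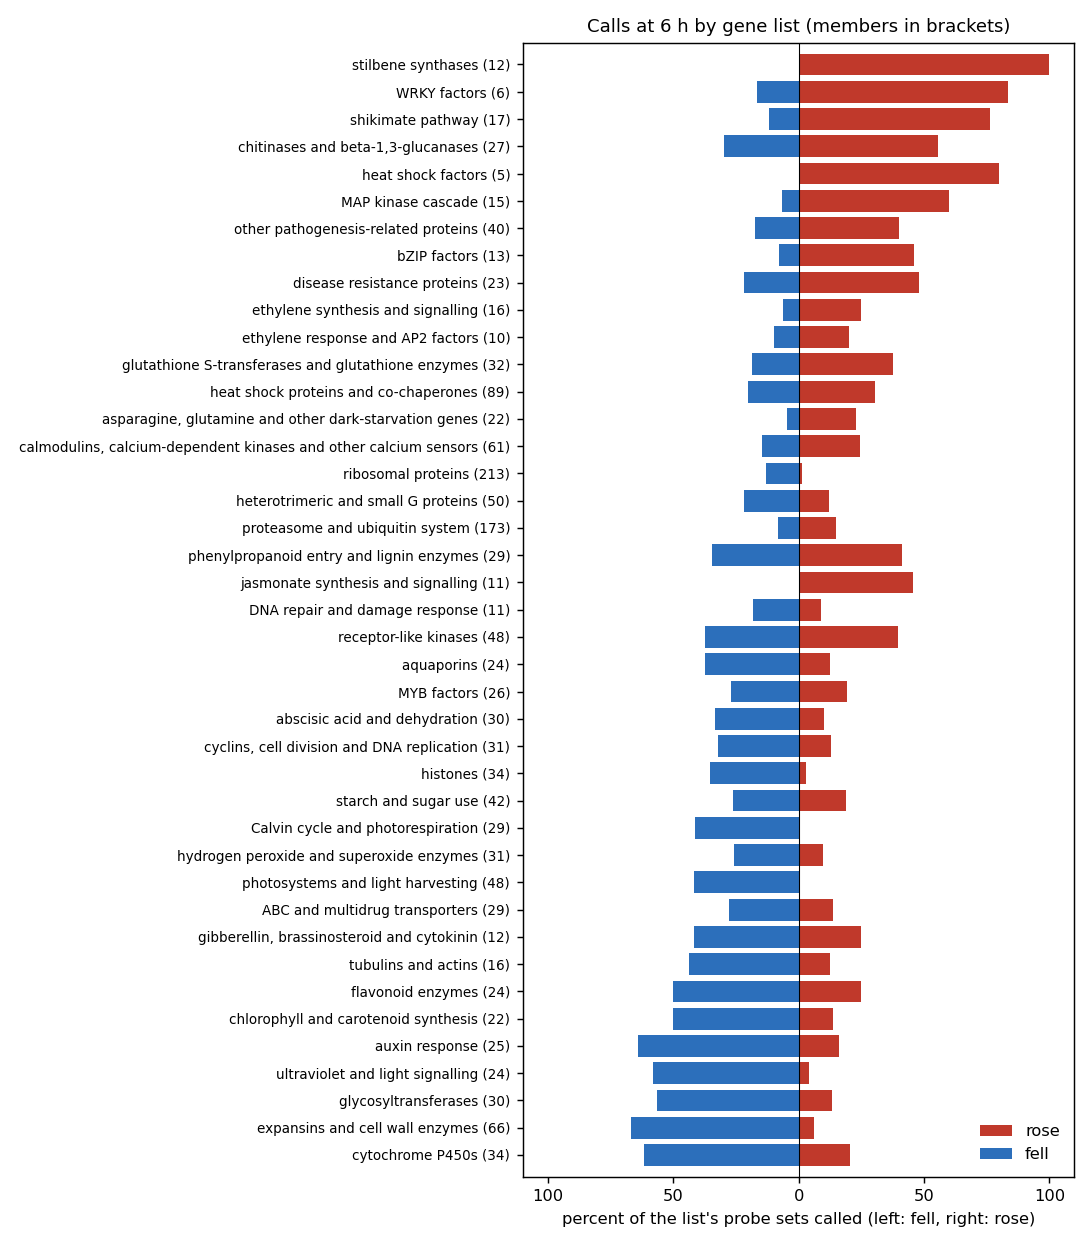
Share of each gene list called at 6 h (horizontal axis, percent of its probe sets, fallen to the left in blue and risen to the right in red), for lists of at least 5 probe sets, ordered by their median log2 change. All 12 stilbene synthase probe sets rose and no photosystem or Calvin cycle probe set did, and falls made up 44 of 66 cell wall enzymes, 16 of 25 auxin response genes and 21 of 34 cytochrome P450s.

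Signalling kinases were the first group to be examined. Of 15 probe sets of the MAP kinase cascade, which relays stress signals to the nucleus, 9 rose and 1 fell, and the median log2 change was 1.20. MPK3 (LOC100263976), a stress-activated kinase at the end of the cascade, had signals of 664, 221 and 258 on the control arrays and 4249, 4482 and 4674 at 6 h. The groups were far apart although the first control array was well above the others. Its log2 change was 3.73 ± 0.34 (standard error, adjusted p = 8.69e-06 from limma, n = 3 arrays per group). Another MAP kinase (LOC100251947) rose 10.5-fold and MAP kinase kinase 5 (LOC100258699), which acts one step above, rose 4.98-fold. The only fall was that of LOC100246022, a MAP kinase, at 2.87-fold.

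Calcium sensors moved both ways. Of 61 probe sets of calmodulins, calcium-dependent kinases and their relatives, 15 rose and 9 fell, with a median of 0.09. Calmodulin-like 11 (LOC100244152), a small calcium sensor, gave 158, 118 and 154 in the control and 1826, 1668 and 3257 at 6 h, a rise of 15.1-fold (log2 3.92 ± 0.32, adjusted p = 4.45e-06 from limma). All 3 arrays of 6 h were far above the highest control, and this gene was not in the list. In the list, the calcium-dependent kinase LOC100243573 rose 9.56-fold and CIPK11, a kinase that calcineurin B-like sensors activate, rose 6.80-fold. Of the same kinase family, CIPK16 fell 17.8-fold, from 849, 1010.5 and 551 to 52.9, 34.0 and 46.4, and CIPK03 fell 9.05-fold. Phospholipase C 2 (LOC100241574), which releases second messengers from membrane lipids, fell 3.60-fold, and was chosen after its values were seen.

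Receptor-like kinases, which sense ligands at the cell surface, had 19 rises and 18 falls among 48 probe sets, with log2 changes from −3.28 to 4.52. LOC100266306 rose 22.9-fold, from 90.6, 62.8 and 69.1 to 1584, 1587 and 1878. LOC100248709, a lectin receptor kinase, fell 9.74-fold, from 197, 266 and 214 to 21.1, 27.6 and 20.8. BAK1 (LOC100243623), a co-receptor of brassinosteroid and immune receptors in Arabidopsis, rose 4.22-fold. Of 50 probe sets of G proteins, 6 rose and 11 fell, and the Rac-like protein LOC100256456 fell 5.98-fold.

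Among transcription factors, the WRKY and heat shock factors mostly rose and the others were mixed. Of 6 probe sets named as WRKY factors, a family tied to defence responses, 5 rose and 1 fell, and of 5 heat shock factors 4 rose and 0 fell. The highest rise on the list was that of LOC100232957, a WRKY75 relative, from 9.90, 8.14 and 7.51 to 354, 459 and 307 (43.5-fold). Outside the list, LOC100254080, named WRKY57-like only in the study's lists, went from 54.0, 74.7 and 30.3 to 8523, 8807 and 8022 (170.2-fold, log2 7.41 ± 0.27). The probe set behind the WRKY57-like primers above, a different one, went from 7.04, 7.06 and 6.42 to 336, 388 and 361, a rise of 52.9-fold. WRKY33-like (LOC100246612), whose Arabidopsis relative is needed for resistance to necrotrophic fungi, went from 30.4, 13.5 and 20.7 to 164, 252 and 202, a rise of 9.94-fold. In each of these genes the 6 h arrays were above all controls. The single fall on the list was that of LOC100256868, by 2.09-fold (log2 −1.07, but −0.93 with arrays centred on their medians).

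MYB14 is the grapevine R2R3-MYB factor that activates stilbene synthase promoters, and it was among the 12 highest rises of named genes. One of its probe sets gave 18.5, 13.2 and 16.7 in the control and 2620.2, 3659.6 and 3729 at 6 h, a rise of 206-fold (log2 7.69 ± 0.17, adjusted p = 1.66e-09 from limma). The other gave 10.4, 8.48 and 11.1 and then 579, 756 and 816, a rise of 71.5-fold. Both probe sets thus went from near the bottom of the signal range to well above its median. Among all 26 MYB probe sets there were 5 rises and 7 falls, and the median was −0.19. A MYB108-like gene (LOC100248153) rose 16.5-fold, with an uneven 6 h group of 217, 501 and 158. MybSt1-like LOC100253576 fell 11.8-fold, from 11926, 12819 and 11544 to 1123, 1152 and 840.2, and LOC100245771, a MYB factor by the study's lists alone, fell 23.9-fold. The C2 repressor MYB LOC100233136 fell 5.42-fold.

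NAC, bZIP, heat shock and ethylene response factors were also represented. NAC42 (LOC100259242), whose Arabidopsis relative is linked to phytoalexin synthesis, rose 20.5-fold from 11.7, 16.5 and 7.59 to 194, 344 and 189. Of 13 bZIP probe sets 6 rose and 1 fell, and the TGA-type factors LOC100252149 and LOC100248184, relatives of the factors that act with the salicylate receptor, rose 3.94-fold and 4.05-fold. The heat shock factors LOC100247320 (HSF 4-like) and LOC100250580 rose 21.0-fold and 17.4-fold, the former from 122, 118 and 74.5 to 1961, 2318 and 2191. Heat shock factors switch on chaperone genes. Of 10 probe sets of ethylene response and AP2 factors, 2 rose and 1 fell. Both rises were of LOC100248784, where control replicate 1 (4009 against 1639 and 1742) was close to the 6 h arrays (4695, 4924 and 4472). The weaker of the 2, at a log2 change of 1.06, fell to 0.83 without control replicate 2 and 0.87 without control replicate 3, below the 2-fold threshold. The study reports that several ethylene response factors were strongly expressed after the exposure, and some of these were outside the list. The counts of the list therefore do not describe the whole family.

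Hormone genes split by hormone. Jasmonate synthesis starts with lipoxygenase and allene oxide synthase in the plastid, and 5 of 11 probe sets of that pathway rose and 0 fell. Allene oxide synthase (LOC100267750) went from 190.1, 154 and 132 to 6194, 6636 and 5751, a rise of 39.4-fold (log2 5.30 ± 0.20, adjusted p = 3.41e-08 from limma). Lipoxygenase LOXO rose 18.8-fold, from 149, 41.1 and 57.5 to 1089, 1528 and 1415, and hydroperoxide lyase HPLA, which diverts the same lipid peroxides to green leaf volatiles, rose 12.2-fold. 12-oxophytodienoate reductase (LOC100262732), a later step to jasmonate, rose 6.34-fold. One probe set of the lipoxygenase LOXA, chosen like the reductase after its values were seen, did not pass and gave 52.0, 78.5 and 52.5 in the control and 80.4, 40.8 and 51.5 at 6 h (adjusted p = 0.807 from limma).

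Ethylene is made by ACC oxidase, and 4 of 16 probe sets of ethylene synthesis and signalling rose and 1 fell. ACC oxidase LOC100256784, named as the ethylene-forming enzyme, rose 29.0-fold on one probe set, from 303, 167 and 117 to 5528, 4769.7 and 5485, and 14.1-fold on the other. The fall was that of the ethylene receptor EIN4-like LOC100254638, at a log2 change of −1.10. It passed the 2-fold threshold by little, and the call was lost without control replicate 2, without replicate 3 of 6 h (−0.91) and with arrays centred on their medians (−0.97).

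Auxin response genes fell. Of 25 probe sets, 16 fell and 4 rose, with a median log2 change of −1.25. The SAUR-like gene LOC100257133, of a family of small auxin-induced proteins that promote cell expansion, gave 1291, 2287 and 1709.9 in the control and 14.1, 11.5 and 10.6 at 6 h. That fall of 143-fold (log2 −7.16 ± 0.20, adjusted p = 6.99e-09 from limma) was the largest of all probe sets. Another SAUR-like gene, LOC100252008, fell 72.0-fold, from 528, 588 and 702 to 7.30, 9.00 and 8.90. These were the only probe sets to fall at least 64-fold. IAA4-like LOC100262403, of the repressors that auxin degrades, fell 14.3-fold. The 4 rises were smaller, up to a log2 change of 2.60. They included LOC100241753, also SAUR-like by the study's lists, at 5.27-fold. Another of the risen probe sets, LOC100251627, is named in the study's list as an enzyme that conjugates jasmonate with amino acids.

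Growth and dehydration hormones followed a mixed course. Gibberellin 2-oxidase (LOC100248356), which inactivates gibberellins, rose 8.67-fold from 98.3, 84.0 and 80.9 to 837, 674 and 773. The gibberellin-regulated GAST1-like gene LOC100253836 fell 22.0-fold, from 2069, 1902 and 2017 to 107, 83.6 and 83.1. Another GAST1-like gene, LOC100266028, rose 3.45-fold, from 825, 794 and 893 to 2746, 2523 and 3472. Brassinosteroid-6-oxidase (BR6OX1), a late step in brassinosteroid synthesis, fell 13.5-fold. Of the 12 probe sets of gibberellin, brassinosteroid and cytokinin, 3 rose and 5 fell. Of 30 probe sets of abscisic acid and dehydration, 10 fell and 3 rose. The dehydration-responsive RD22-C fell 10.4-fold, from 8010.2, 10032 and 8490.1 to 1206, 769 and 658, whereas a dehydrin (LOC100232959) rose 6.46-fold.

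Transcripts of the route to phenylalanine mostly rose. Of 17 probe sets of the shikimate pathway, which makes the aromatic amino acids, 13 rose and 2 fell, and the median log2 change was 2.81. DAHP synthase (LOC100258475), its first enzyme, went from 272, 538 and 949.8 to 9550.1, 10164 and 9449.8, a rise of 18.8-fold (log2 4.23 ± 0.36, adjusted p = 5.51e-06 from limma). The control arrays were widely spread, while the 6 h arrays nearly coincided. The chorismate mutase and prephenate dehydratase-like gene LOC100267022, near the end of the route to phenylalanine, rose 13.9-fold and 13.5-fold on its probe sets. Both falls belonged to 1 shikimate kinase-like gene, LOC100266919, at 2.56-fold and 2.40-fold.

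The enzymes that lead to 4-coumaroyl-CoA did not all move one way. Of 3 probe sets named phenylalanine ammonia-lyase, the entry enzyme, 1 rose and 2 fell. Phenylalanine ammonia-lyase 2 (LOC100241377) rose 6.47-fold from 854, 826 and 1172 to 6013, 6338 and 5873. LOC100241575 fell 3.55-fold, from 1676, 2526 and 3206 to 822, 472 and 780.2, and LOC100233012 fell 3.85-fold, from 237, 293 and 385 to 93.8, 90.0 and 55.5. The groups did not overlap in any of the 3. Cinnamate-4-hydroxylase (LOC100253493), the next step, rose 10.7-fold from 189, 243 and 722 to 2126, 3728 and 5129, and 7.72-fold on its other probe set. Among 4-coumarate-CoA ligases and their relatives, LOC100254698 rose 8.96-fold, LOC100253117 rose 9.31-fold and 4CL rose 3.19-fold. A relative, LOC100267198, had a log2 change of 0.53 and another, without a symbol, one of −0.92, and neither was called; the latter was called at −1.20 without replicate 2 of 6 h. These lyases, the hydroxylase and the ligases were chosen after their values were seen. Of the 29 probe sets of entry and lignin enzymes, 12 rose and 10 fell, so the list as a whole was split. A ferulate-5-hydroxylase-like gene (LOC100267863), of the enzymes that lead to syringyl lignin, had the highest rise, at 135-fold, from 42.2, 53.2 and 24.7 to 5414, 5640.1 and 4494. Caffeic acid O-methyltransferase LOC100264014 rose 16.1-fold. A cinnamoyl-CoA reductase-like gene fell 6.13-fold, and 2 dirigent-like genes (LOC100260405 and LOC100246882) fell 8.61-fold and 4.87-fold. Dirigent proteins steer the coupling of lignans, and other members rose steeply, with LOC100263839 at 158-fold and a gene without a symbol at 273-fold, both named only in the study's lists.

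Stilbene synthases, which close the resveratrol skeleton, held the highest rises of the array. All 12 probe sets rose, with log2 changes from 2.77 to 9.07 and a median of 8.05. The highest, for LOC100253166, gave 28.5, 28.6 and 29.3 in the control and 14249.7, 16096 and 16326 at 6 h, a rise of 539-fold (log2 9.07 ± 0.09, adjusted p = 1.92e-11 from limma). LOC100252908 rose 465-fold, stilbene synthase 2 (LOC100246143) 371-fold and stilbene synthase 4 (LOC100241891) 307-fold. A further probe set of LOC100253166 rose 516-fold, from 28.1, 34.4 and 34.3 to 15192, 16987 and 17671. Stilbene synthase genes are near-identical copies. The probe sets with the suffixes _s_at and _x_at, which include those at 539-fold, 465-fold and 371-fold, can bind transcripts of several of them, so those values may not belong to single genes.

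Flavonoid enzymes went mostly the other way. Of 24 probe sets, 12 fell and 6 rose, with a median log2 change of −0.96. Flavonol synthase (LOC100232938) fell 14.1-fold, from 840.2, 1239 and 991 to 67.9, 85.0 and 63.8 (log2 −3.82 ± 0.18, adjusted p = 1.05e-07 from limma). Chalcone synthase (CHS), the entry enzyme, fell 11.6-fold, from 594, 1582 and 3278 to 146, 163 and 81.9. The control arrays were uneven in the same way for several of these genes, as flavonoid 3′,5′-hydroxylase (F3'5'H) gave 2100.2, 3319 and 6717, flavanone 3-hydroxylase (F3H) 329, 683 and 1651, and leucoanthocyanidin dioxygenase (LDOX) 312, 928 and 1788. In each, control replicate 3 was the highest and control replicate 1 the lowest, and yet all 3 arrays of 6 h lay below all controls. Their falls were 14.1-fold for F3'5'H, 7.89-fold for F3H and 10.8-fold for LDOX, and the last 2 genes were chosen after their values were seen. The probe set of CHI, a chalcone isomerase, the enzyme that follows chalcone synthase, rose by 10.1-fold from 817, 1354 and 1788 to 12718, 12705 and 12580.2. A gene that the study's lists name chalcone isomerase 4 (LOC100255217), chosen after its values were seen, fell 4.78-fold from 813, 1405 and 1605 to 278, 253 and 238. A leucoanthocyanidin dioxygenase-like oxygenase (LOC100264239) rose 75.7-fold.

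Defence proteins gave some of the highest and some of the deepest changes within the same families. Of 27 probe sets of chitinases and beta-1,3-glucanases, which degrade fungal walls, 15 rose and 8 fell, with a median log2 change of 1.74. The class IV chitinase CHI4D went from 63.4, 56.3 and 42.1 to 13983, 15017 and 10126, a rise of 242-fold (log2 7.92 ± 0.18, adjusted p = 1.97e-09 from limma), and CHI4C rose 107-fold, from 107, 28.5 and 41.2 to 6193, 6078 and 4094. By contrast, the glucanase LOC100261876 fell 23.6-fold, from 417, 411 and 637 to 18.7, 27.4 and 16.1. Of 40 probe sets of other pathogenesis-related proteins, 16 rose and 7 fell. A germin-like protein (LOC100262082), of a family of cell wall oxidases, rose 136-fold, from 26.4, 44.6 and 23.5 to 4093, 4604 and 3684, and an osmotin (LOC100263272), an antifungal protein of the thaumatin family, rose 74.2-fold. In that same thaumatin family, LOC100247111 fell 20.8-fold, from 4456, 4432 and 4205 to 159.7, 254 and 227. The harpin-induced-like gene LOC100247789 rose 48.5-fold, from 771, 108 and 119 to 10227, 11616 and 9445, with control replicate 1 far above the other controls. Of 23 probe sets named as disease or other resistance proteins 11 rose and 5 fell. EDS1 (LOC100250236), a hub of salicylate-dependent immunity in Arabidopsis, rose 10.1-fold, while 1 of the falls (LOC100259790, 2.71-fold) was a multidrug transporter homolog rather than a disease resistance protein.

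**Figure D3:**
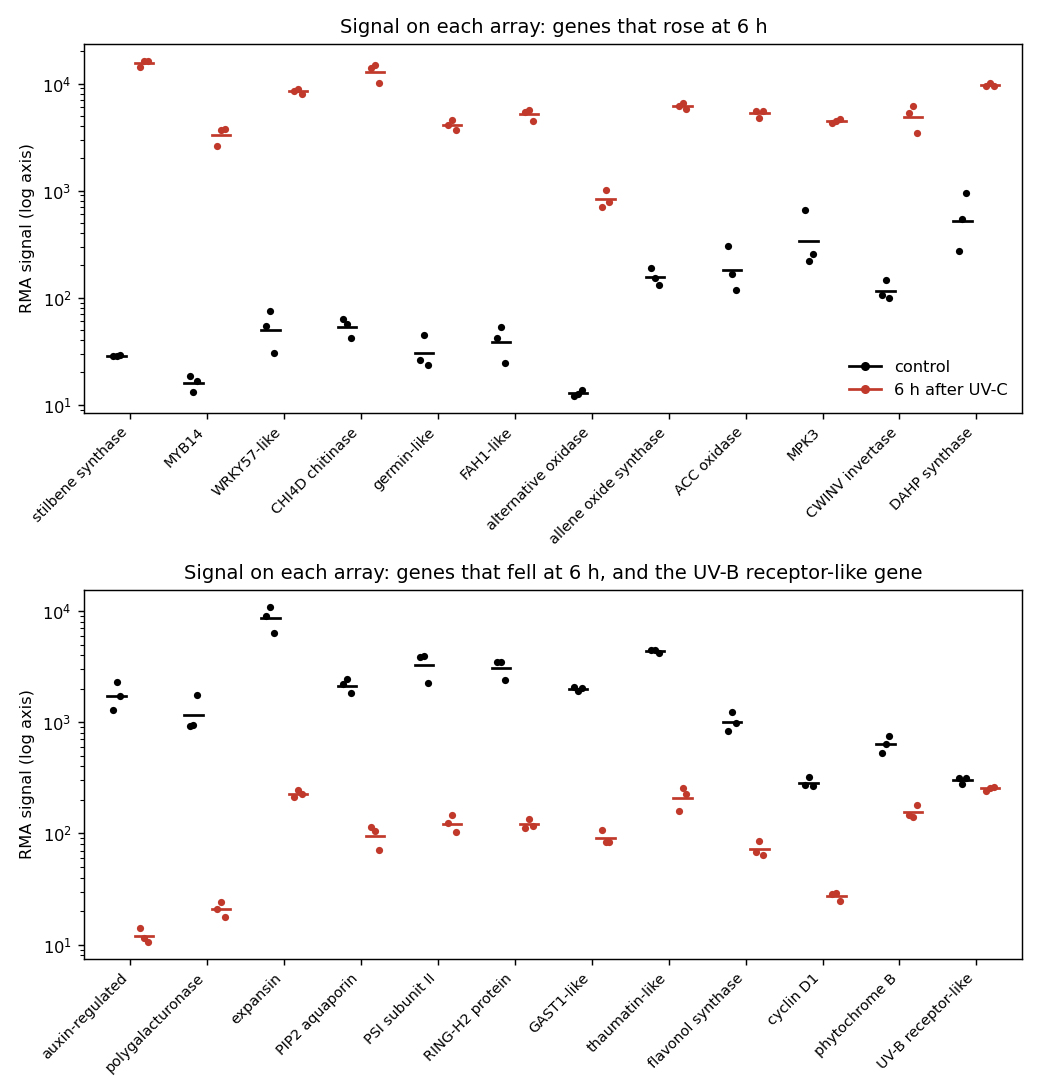
RMA signal on each of the 3 control arrays (black) and the 3 arrays of 6 h (red), on a log axis. The upper panel shows 12 genes that rose. The lower panel shows 11 genes that fell and a UVB-resistance protein-like gene, which the panel labels UV-B receptor-like. Points are arrays and lines are geometric means. Every gene shown is separated between the groups. The UVB-resistance protein-like gene, at 281 to 317 in the control and 239.8 to 264 at 6 h, is the only one not called.

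Redox and detoxification enzymes were divided. Of 32 probe sets of glutathione S-transferases and glutathione enzymes, 12 rose and 6 fell. These falls were near the threshold, the deepest at a log2 change of −1.25. The count of falls was 1 with arrays centred on their medians, and 3 without control replicate 3 or without replicate 1 of 6 h. GST1, of the tau class that detoxifies reactive compounds, rose 40.6-fold, from 22.5, 18.5 and 19.7 to 936, 1122 and 524. Of 31 probe sets on the list of hydrogen peroxide and superoxide enzymes, which also holds an alternative oxidase, 3 rose and 8 fell, with a median of −0.67. With arrays centred on their medians, 5 fell. Alternative oxidase 1b (LOC100252878), which lets mitochondria pass electrons to oxygen without making ATP, rose 64.5-fold, from 12.1, 12.6 and 13.8 to 704, 1023 and 786. Peroxidases went both ways. LOC100241814 fell 11.8-fold, while LOC100241916 rose 9.85-fold and LOC100257005 rose 3.24-fold. Cytochrome P450s, oxidases of many pathways, had 21 falls and 7 rises among 34 probe sets and the lowest median of all lists, −2.02. The 7 rises included allene oxide synthase, which is a P450. Glycosyltransferases, which attach sugars to plant metabolites, had 17 falls and 4 rises among 30, yet LOC100262128 rose 89.7-fold, from 20.2, 29.1 and 12.5 to 2116, 1737 and 1445. Of 29 ABC transporters, 8 fell and 4 rose, and the one annotated ABC rose 12.5-fold.

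Chaperones had more rises than falls, and most probe sets of the ubiquitin system were not called. Of 89 probe sets of heat shock proteins and co-chaperones, 27 rose and 18 fell, with a median of 0.22. The cytosolic HSC70-1-like gene LOC100254725 rose 13.7-fold, from 158, 97.6 and 161 to 1802, 2009 and 1747, HSP90 (LOC100261759) rose 2.56-fold, and a small heat shock protein (LOC100261583) rose 8.14-fold, the last 2 chosen after their values were seen. The deepest fall, of the putative chaperone LOC100251972, was 4.11-fold. Of 173 probe sets of the proteasome and ubiquitin system, 26 rose and 14 fell and 133 did neither. A polyubiquitin (UBQ4-like) rose 10.4-fold. The RING-H2 protein LOC100241393, of the ubiquitin ligases, fell 25.3-fold, from 3479.9, 3496 and 2408 to 113, 136 and 117, and the F-box protein LOC100247293 fell 19.3-fold.

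Photosynthesis genes only fell or were not called. Of 48 probe sets of photosystems and light harvesting, 20 fell and 0 rose, with a median log2 change of −0.70, and of 29 of the Calvin cycle and photorespiration, 12 fell and 0 rose, with a median of −0.62. Subunit II of photosystem I (LOC100242600) fell 26.6-fold, from 3886, 3963 and 2253 to 124, 145 and 102 (log2 −4.73 ± 0.22, adjusted p = 1.11e-07 from limma). It went much further than its neighbours, for the next in the list, a light-harvesting protein (LOC100250504), fell 6.29-fold, from 9939, 8442 and 10101 to 1539, 1307 and 1693. Transketolase (LOC100262607), which rearranges sugar phosphates in the Calvin cycle, fell 10.6-fold on the probe set with the largest change. The small subunit of Rubisco (LOC100267942), the enzyme that fixes carbon dioxide, gave, on one probe set, 19765, 19551 and 19797 in the control and 19129, 19281 and 18689.9 at 6 h (log2 −0.05 ± 0.08, adjusted p = 0.668 from limma). That probe set was chosen after its values were seen, and it lay near the top of the signal range, where the highest signals of the 6 arrays were 26241 to 27313; whether it was saturated was not tested. Of 22 probe sets of chlorophyll and carotenoid synthesis, 11 fell and 3 rose.

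Light signalling genes mostly fell. Of 24 probe sets of ultraviolet and light signalling, 14 fell and 1 rose, with a median log2 change of −1.27. Phytochrome B (LOC100261882), a red light receptor, went from 526, 638 and 752 to 146, 141 and 180.5, a fall of 4.08-fold (log2 −2.03 ± 0.20, adjusted p = 1.62e-05 from limma). Phytochrome C (LOC100258014) fell 3.08-fold, and phototropin 1 (LOC100262213), a blue light receptor, fell 4.44-fold from 1995, 2113 and 1799 to 415, 408 and 513. A gene named UVB-resistance protein-like (LOC100265192) gave 317, 281 and 312 in the control and 239.8, 258 and 264 at 6 h. It did not pass (log2 −0.25 ± 0.14, adjusted p = 0.154 from limma). The name alone does not show that it encodes a UV-B receptor. The receptors and the UVB-resistance protein-like gene were chosen after their values were seen. The CONSTANS-like gene COL2 (LOC100248114), a B-box factor under daily control in other plants, fell 11.0-fold, from 5808, 5976 and 5649 to 505, 540.5 and 542, and a further B-box factor (LOC100264676) fell 31.9-fold. Both clock genes on the list rose, GIGANTEA (LOC100254197) by 3.91-fold, from 298, 280.4 and 181 to 908, 1039 and 958, and FKF1 (LOC100255972) by 4.95-fold. In Arabidopsis these 2 genes peak late in the day. Control and 6 h leaves were taken at different times of day, which cannot be told apart from UV-C in these rises.

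Of 11 DNA repair probe sets, 1 rose (9.09%) and 2 fell (18.2%), against 17.5% and 22.3% of the named probe sets. The rise was that of LOC100253251, at a log2 change of 1.09. It was 0.93 with arrays centred on the hybridization controls and 0.99 without replicate 2 of 6 h, both under the 2-fold threshold. The photolyase and blue light receptor-like gene PHR2 (LOC100253809) fell 3.50-fold, from 2798, 2577 and 2285 to 815, 695 and 681. A RAD23-like gene (LOC100245820), of the excision repair of ultraviolet lesions, gave 1034, 1098 and 1155 in the control and 1019.9, 1036 and 1039 at 6 h, with a log2 change of −0.09 ± 0.10. The UV-damaged DNA binding factor-like gene LOC100256664 gave 312, 284 and 299 and then 172, 170.5 and 201, a change of 1.65-fold downwards that had an adjusted p of 0.00254 from limma and was under the 2-fold threshold. Both were chosen after their values were seen.

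Cell wall and growth genes fell together. Of 66 probe sets of expansins and cell wall enzymes, 44 fell and 4 rose, with a median log2 change of −1.60. Expansins loosen the wall during growth, and LOC100244917 fell 37.8-fold from 9037, 10965 and 6404 to 213, 245 and 226, while LOC100261426 and LOC100244103 fell 32.2-fold and 30.4-fold. The polygalacturonase LOC100263206, which cuts pectin, fell 55.5-fold from 929, 937 and 1772 to 21.1, 24.2 and 17.7 (log2 −5.80 ± 0.24, adjusted p = 5.30e-08 from limma). Among the few rises, a cellulose synthase-like gene (LOC100250126) rose 8.09-fold. The aquaporin LOC100263698, named only in the study's lists, fell 37.5-fold from 2864, 3929 and 7046 to 120.3, 121 and 103. Of 24 probe sets on the aquaporin list, 9 fell and 3 rose: PIP2, a water channel of the plasma membrane, fell 22.6-fold from 2194, 2432 and 1838 to 114, 105 and 70.4, whereas all 3 probe sets of PIP1;1 rose, by 2.15-fold to 2.23-fold. Those 3 rises were near the threshold and were at or under 2-fold when each array was centred on the hybridization controls, where the log2 changes were 0.94, 0.99 and 1.00. Without replicate 2 of 6 h, 2 of them were at 0.97 and 0.98. Of 16 tubulin and actin probe sets 7 fell and 2 rose, and tubulin beta-8 (LOC100244399) fell 8.23-fold.

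Cell division genes fell more often than they rose. Of 31 probe sets of cyclins, division and replication, 10 fell and 4 rose, and cyclin D1 (LOC100255261), which starts the cell cycle, fell 10.4-fold from 274, 319.6 and 266 to 28.5, 29.3 and 24.7. Of 34 histone probe sets 12 fell and 1 rose, and the histone H4 gene LOC100261486 fell 4.45-fold. Most ribosomal protein probe sets were not called at 6 h: of 213 probe sets, 28 fell, 3 rose and 182 did neither, and the median was 0.02. With no fold threshold, 53 rose and 53 fell. The deepest of the falls was plastid ribosomal protein S6 (LOC100244408), at 5.12-fold, from 1926, 1641 and 1835 to 339, 304 and 419, and the highest rise was the 60S protein L6 (LOC100257150), at 3.02-fold.

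Sugar use changed strongly at a few genes. Of 42 probe sets of starch and sugar use, 8 rose and 11 fell. The cell wall invertase CWINV, which cleaves sucrose outside the cell, rose 41.8-fold from 107, 145 and 100.2 to 5342, 6160.4 and 3447, and the neutral invertase NIN1 rose 32.1-fold from 459.7, 291 and 260.3 to 9797, 11256 and 10439. The groups did not overlap in either gene. Sucrose-phosphate synthase 1 (LOC100232974), which makes sucrose, fell 7.48-fold. Asparagine synthetase (LOC100241610), a gene that darkness and sugar starvation switch on in many plants, rose 12.2-fold from 18.3, 21.8 and 21.5, but its 6 h arrays were far apart at 281, 1001 and 55.1, with a standard error of 0.91 on the log2 scale (adjusted p = 0.00702 from limma). Of the 22 probe sets of that dark-starvation list 5 rose and 1 fell.

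Leaf markers were bright at both times. All 17 probe sets of leaf mesophyll markers, the chlorophyll-binding proteins, the Rubisco small subunit and carbonic anhydrase, were measured, and 7 of them fell and 0 rose. Their summed signal was 157174 to 177250.4 on the control arrays and 93567 to 102527 at 6 h. The list of seed and berry markers, 17 probe sets that include ripening-related proteins, had 5 rises and 4 falls, and its summed signal went from 29327 to 33278 up to 42645 to 45592. The part of either shift in the results above was not tested.

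The changes at 6 h were then set beside the 12 h arrays. Of the 1956 rises, 1674 were also called up at 12 h, and of the 2411 falls, 2151 were also called down. Both comparisons use the same control arrays, so these counts do not show whether a change had reached its full size, which the direct test of 12 h against 6 h addresses. It called 384 probe sets higher (2.34%) and 746 lower (4.54%) at 12 h. Of the rises at 6 h, 103 (5.27%) were lower at 12 h than at 6 h and 123 (6.29%) were higher still. Of the falls, 404 (16.8%) were lower still and 34 (1.41%) were higher at 12 h than at 6 h, not all of them back at the control level. Of the 12 stilbene synthase probe sets 1 was higher at 12 h than at 6 h and 0 were lower, and the first MYB14 probe set differed by 0.04 ± 0.17 on the log2 scale.

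Transient rises at 6 h included the dehydrin LOC100232959, a protective protein of drying cells, with 43.4, 40.6 and 20.3 in the control, 318, 283 and 107 at 6 h, then 37.8, 19.7 and 23.7 at 12 h. The DC1.2-like gene LOC100251832 gave 14.8, 17.3 and 24.6, then 183, 119 and 372, then 18.1, 24.2 and 20.7. At 12 h both were close to their control levels. Gibberellin 2-oxidase declined from 837, 674 and 773 to 242, 229 and 263, and the WRKY11-like gene (WKRY) from 1830.2, 1965 and 1796 to 883, 913 and 578. These 2 genes declined only in part. At 12 h they were still 2.79-fold and 4.46-fold above the control, where WKRY gave 270.0, 103 and 188. A cytochrome P450 without a symbol went from 476, 443 and 996 back to 47.3, 78.3 and 57.9. The serine carboxypeptidase II-like gene LOC100255006 was also lower at 12 h than at 6 h, but its rise at 6 h (log2 1.41, adjusted p = 0.028) rested on uneven arrays, and the adjusted p was between 0.0792 and 0.102 without control replicate 1, control replicate 2, or replicate 1 or 2 of 6 h, 0.0532 with only the control and 6 h arrays and 0.0534 with the replicate block.

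Other rises had only begun at 6 h. The germin-like protein GER7 gave 17.2, 11.5 and 13.0 in the control, 29.2, 53.4 and 36.8 at 6 h, but 6343, 4175 and 4322 at 12 h. The miraculin-like protease inhibitor LOC100255885 went from 75.6, 247 and 55.3 at 6 h to 4005, 1672 and 3468 at 12 h, and BIG8.1, a serine hydrolase-like gene, from 573, 609 and 642 to 7559, 7195 and 7664. At 6 h these 3 genes stood at 2.82-fold, 8.25-fold and 21.8-fold of the control. A pathogenesis-related protein 1 precursor, a marker of salicylate responses, went from 26.0, 23.8 and 18.3 in the control to 64.8, 129 and 62.5 at 6 h and 954, 851 and 852 at 12 h.

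Many photosynthesis probe sets were lower at 12 h than at 6 h. Of the 48 probe sets of photosystems and light harvesting, 28 were lower at 12 h than at 6 h and 1 was higher. Only 20 of the 48 had been called down at 6 h, so the 28 include probe sets that were not called then. The median log2 change from the control went from −0.70 to −2.15. The chlorophyll-binding antenna protein LOC100241745 gave 14053, 11207 and 12113 in the control, 6819, 4000.0 and 5197 at 6 h, then 753, 476 and 581 at 12 h. The lipid transfer protein LOC100233106, of the leaf surface and its defence, gave 15372, 16228 and 8043, then 3811, 2086 and 1659.8, then 116, 114 and 124. Chloroplast fructose-bisphosphatase had an uneven control at 759, 619 and 151 against 149, 119 and 116 at 6 h, and its fall at 6 h had an adjusted p of 0.0561 without control replicate 2.

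Among the falls that had recovered by 12 h, the vacuolar invertase LOC100256970 gave 215, 286 and 610.5 in the control, 49.4, 42.7 and 42.1 at 6 h and 379, 319 and 364 at 12 h. Pyruvate dehydrogenase kinase (LOC100266622), which shuts off the entry of pyruvate into the citric acid cycle, gave 179, 187 and 241, then 41.8, 54.5 and 36.8, then 189.9, 141 and 215. L-idonate dehydrogenase (LOC100232980), an enzyme of tartaric acid synthesis in grape, was below the control at 6 h (678, 663 and 591 against 1599, 1697 and 1761) and above it at 12 h (2575, 2188 and 2563). In all 3 genes the 6 h arrays were below every array of both other times.

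**Figure D4:**
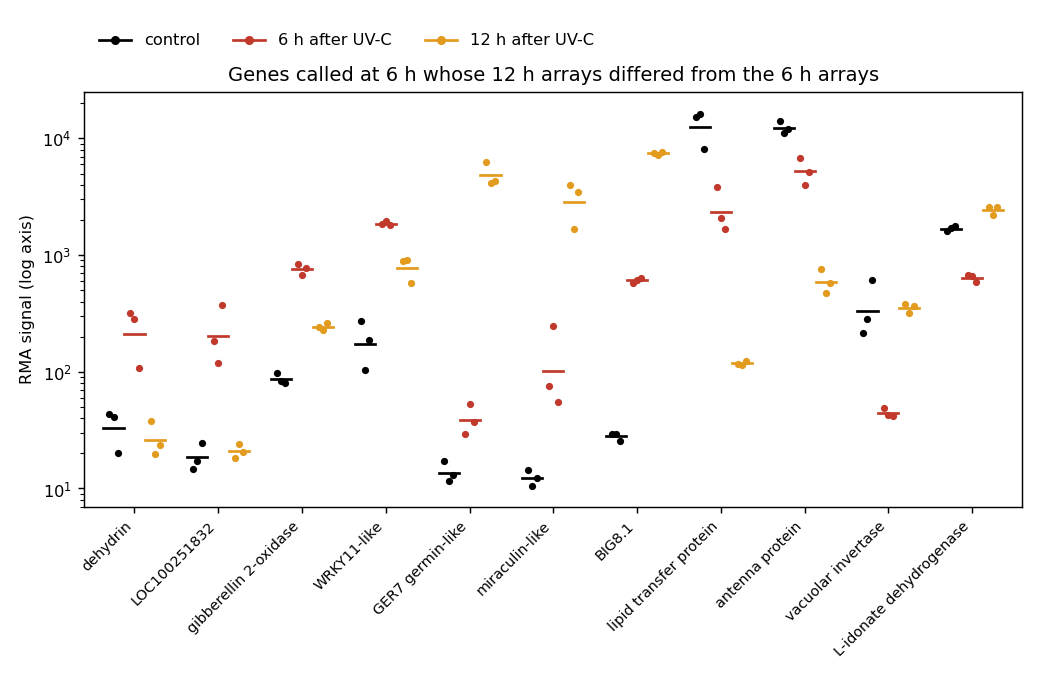
RMA signal on each control array (black), 6 h array (red) and 12 h array (orange), on a log axis, for 11 genes that were called at 6 h and differed between 12 h and 6 h; points are arrays and lines are geometric means. The dehydrin and LOC100251832, the DC1.2-like gene, are high at 6 h only, GER7 goes from 29.2 to 53.4 at 6 h to 4175 to 6343 at 12 h, and the vacuolar invertase is low at 6 h only.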

How the data were processed

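The authors hybridized RNA of 3 replicates of 6 leaves per time to Affymetrix V. vinifera arrays, ran RMA (background correction, quantile normalization, summary) and deposited 1 intensity per probe set on a linear scale. The deposited tables of their own comparisons hold a SAM score, a q-value in percent and a fold change, none of which was used. Their annotation, for 10471 probe sets, supplied gene symbols and names. Values were log2 transformed, 165 Affymetrix control probe sets were left out, and 16436 were fitted over all 9 arrays with limma 3.58.1 (lmFit, eBayes; R 4.3.3) using 6 residual and 3.42 prior degrees of freedom and Benjamini-Hochberg adjustment over all of them. Adjusted p-values are from limma, errors after ± are standard errors, and folds are ratios of geometric means. The fit was tested on simulated data. Tables and figures used Python 3.11.15, numpy 2.4.6, pandas 2.3.3 and matplotlib 3.10.9. The study's methods, not the labels, describe the 3 arrays per time as separate repeats of the treatment, and their number limits the precision. No genome build is given in the sources used here, so no coordinates are printed.

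Few gene titles were informative (740 probe sets), so 3470 more were named by the target description, that is by similarity to proteins of other plants. A name given only in the study's lists served for single genes and never for a list. The 46 gene lists are word searches of these names. Named genes are the 12 highest and 12 lowest changes with non-overlapping arrays, up to 3 called members of each list per direction, and up to 4 of each 12 h against 6 h count. Quantitative RT-PCR targets, light signalling genes, repair genes and a few enzymes were named beyond that rule, after their values were seen. One probe set was set aside because its title (chalcone synthase) and its symbol (an aquaporin) disagreed. The members and lists were chosen with earlier results of these data known. Replicate numbers did not pair the arrays.

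Alternatives were no fold threshold, an unadjusted p under 0.05 with at least 2-fold (the methods used SAM and a lower confidence bound of the fold, which were not rerun), only the 2 groups, robust estimation with a mean-variance trend, a filter on the dimmest 25% of probe sets, the removal of those with the suffixes _s_at, _x_at and _a_at, centring on the median or on 18 hybridization controls, a further quantile normalization, a replicate block, and leaving out each array.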

Additional observations from a re-analysis of the deposited data

Results flagged for a closer look

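For the genes below, the test of 12 h against 6 h itself passed (limma, adjusted p under 0.05 and at least 2-fold), so the response differed between the times. Values are log2 differences, 12 h minus 6 h. Groups of 3 arrays are too small for a test of single outlying arrays.

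Among genes that rose at 6 h, levels were lower at 12 h for the cytochrome P450 without a symbol (−3.31), DC1.2-like LOC100251832 (−3.27), the dehydrin LOC100232959 (−3.03), gibberellin 2-oxidase LOC100248356 (−1.63), the WRKY11-like gene WKRY (−1.26) and calmodulin-like 11 (−1.26). They were higher for GER7 (6.97), miraculin-like LOC100255885 (4.82), BIG8.1 (3.62), the pathogenesis-related protein 1 precursor (3.46), the small heat shock protein LOC100261583 (2.84) and the dioxygenase LOC100264239 (1.20).

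Among genes that fell at 6 h, levels were lower still for the lipid transfer protein LOC100233106 (−4.33), fructose-bisphosphatase (−3.88), the antenna proteins LOC100241745 (−3.14) and LOC100250504 (−2.46), sucrose-phosphate synthase 1 (−1.56), plastid ribosomal protein S6 (−1.42), histone H4 LOC100261486 (−1.29), the peroxidase LOC100241814 (−1.26), the aquaporin LOC100263698 (−1.19), thaumatin-like LOC100247111 (−1.16) and phototropin 1 (−1.08). They had come back up for the vacuolar invertase LOC100256970 (2.98), pyruvate dehydrogenase kinase LOC100266622 (2.03) and L-idonate dehydrogenase LOC100232980 (1.92). CIPK03 had come back only in part (1.38) and was still 3.48-fold below the control at 12 h.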

How the results depend on the processing

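With no fold threshold, 3813 probe sets rose and 4873 fell, against 1956 and 2411 with it. In the 12 h against 6 h counts, whose alternatives were chosen after seeing the data, the same change gave 527 rises that were lower at 12 h (103 with the threshold), 872 rises that were higher (123), 1289 falls that were lower (404) and 671 falls that were higher (34). With arrays centred on the hybridization controls, 56 falls were higher at 12 h. Leaving out 1 array gave 1883 to 2015 rises and 2355 to 2488 falls, and 95 to 123, 107 to 136, 379 to 420 and 36 to 44 in the 4 counts of 12 h against 6 h. The other alternatives kept these 6 counts within 1.5 times. Of 1472 counts of list members over the alternatives, 99 moved by more than that, 41 of them with no fold threshold. Outside that setting, the moved counts stood at no more than 9 probe sets under the alternative. They were most often the falls of ethylene signalling and the rises of ethylene response factors. The removal by suffix, which shortens the lists themselves, moved 13 of the counts. It lowered rises from 12 to 6 for stilbene synthases and from 15 to 9 for chitinases and beta-1,3-glucanases. Rises of other pathogenesis-related proteins went from 16 to 9.

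Centring on the array medians shifted the median of all probe sets by 0.13 and gave 2245 rises and 2070 falls, and centring on the hybridization controls shifted it by −0.16 and gave 1688 and 2928, so rises were 44.8% of the calls, 52.0% and 36.6%. The replicate numbers did not pair the arrays, since the correlations of same-numbered deviations were −0.069, −0.152 and −0.050. With the replicate block, 1948 probe sets rose and 2410 fell. In the 4 counts of 12 h against 6 h, the block gave 104, 121, 402 and 34. Of the 278 probe sets named by the rule or added to it, 23 changed their call under at least 1 alternative, and 0 reversed.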
